A study of Mus musculus with 18 samples.

Results

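The comparison of Oct4 null with wild type mouse embryos at E3.75, the stage of the blastocyst, is described here across all 6648 genes of the E3.75 table, of 8202 genes listed for at least 1 stage of the series. Weight was given to the 2932 genes whose mean over the 6 libraries was at least 50 CPM (reads of a gene per 1000000 reads of its library). These genes held 90.7% of the CPM of wild type and 91.2% of that of null libraries. Just inside that limit were Anapc11 and Selenok, both at 50.01 CPM, and just outside it were Gm12362 (49.95 CPM) and Tmem231 (49.98 CPM). Both groups were embryos of the CD1 strain flushed from the mother's tract, 3 libraries of genotype Oct4 +/+ and 3 of genotype Oct4 -/-, and no treatment is named. The series holds 18 such libraries in 6 groups, the 2 genotypes at 3 stages that include E2.5 and E4.5. RNA was primed with oligo(dT) and the stretch next to the poly(A) tail was amplified, so that most reads lie within about 1 kb of the 3′ end. By the series' design text the 3 libraries of a group are 3 embryos. The deleted stretch of Pou5f1 is not stated, nor whether embryos were littermates.

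Oct4, the product of Pou5f1, is a POU-domain transcription factor that binds an octamer sequence in DNA and is required for the pluripotent inner cell mass. In the blastocyst an outer epithelium, the trophectoderm, encloses the inner cell mass, whose cells become either epiblast or primitive endoderm. Epiblast cells secrete Fgf4, which acts on neighbouring cells that form primitive endoderm, an epithelium that lays down a basement membrane of laminin and collagen IV. A library of whole embryos mixes these lineages, so that fewer cells of a type and less RNA per cell cannot be told apart.

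The libraries did not differ by genotype alone. Depth ran from 531784 to 1177830 reads in wild type and from 865017 to 1437690 reads in null libraries, so that 1 read was worth 0.6956 to 1.88 CPM. Library 3 lay between the other two of its group in 44.6% of well-expressed genes in wild type and in 49.7% in null, against 22.5% to 32.8% for libraries 1 and 2. The design text counts 3 embryos a group, and whether library 3 is independent of the others was not tested; if it is not, n = 3 overstates the replication. Results are therefore given also for libraries 1 and 2 alone. With those 4 libraries the limma fit leans on the spread shared by genes of like level more than on a gene's own spread. The adjusted p of Lgals1 was 3.29e-15 there and 3.09e-05 with all 6 libraries, and that of Tmsb4x 8.91e-07 and 0.0025. A call that held in that fit is therefore not a check of a gene's own spread. On the first principal component (52.6% of variance) wild type library 1 lay at 0.61, wild type library 3 at 0.40 and wild type library 2 at 0.12, and the null libraries at -0.29 to -0.50. Wild type library 2 was the wild type library nearest the null side in 64.7% of the genes that fell and 73.4% of those that rose, against 45.6% of all well-expressed genes. Trophectoderm markers (10 of 10 listed were in the table) summed to 7102 to 8347 CPM in wild type and 6365 to 7272 CPM in null libraries, and 1 rose. Krt18 alone gave 4579 to 5852 CPM of the sums in wild type and 3944 to 4732 CPM of those in null libraries. Markers of epiblast and inner cell mass (8 of 9) summed to 1145 to 1408 and 991.9 to 1048 CPM, with 1 rise and 6 falls, and those of primitive endoderm (8 of 10) to 1246 to 1386 and 1432 to 1565 CPM, with 2 rises and 4 falls. Dab2 set the direction of the latter sum: the other 7 primitive endoderm markers summed to 797.5, 581.6 and 619.7 CPM in wild type and to 470.5, 507.4 and 547.4 CPM in null libraries. The epiblast and inner cell mass set includes the targeted gene, Pou5f1, as 1 of its 6 falls. Pou5f1 stood at 380.4 to 599.9 CPM in wild type and at 220.8 to 285.7 CPM in null libraries. Its fall is part of the lower epiblast sum, and a sum without it was not taken. The lower epiblast sum is therefore not read as a fall of the other markers together. Of 7 oocyte markers none was in the table, and of 10 markers of cumulus, oviduct and uterus Lyz2 alone was.

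Pou5f1 (ENSMUSG00000024406) stood at 599.9, 380.4 and 546.8 CPM in the wild type libraries and at 220.8, 285.7 and 266.4 CPM in the null libraries. The groups did not overlap, and wild type library 2 lay nearest to the null libraries. The difference was -0.96 on the log2(CPM + 1) scale, null minus wild type (SE 0.13, adjusted p = 8.57e-05, limma). The call held with any 1 library left out. With libraries 1 and 2 alone the adjusted p (2.07e-05, limma) was lower than with all 6 libraries, so that fit adds no check of the gene's own spread. The wild type mean was 509 ± 114.5 CPM and the null mean 257.6 ± 33.32 CPM (SD, n = 3), so that signal remained under the null label. Reads from the 3′ end check the genotype only if the deletion takes that end, which is not stated.

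Many genes changed, most of them by less than 2-fold. Of all genes 545 passed the threshold (8.2%), 239 higher (3.6%) and 306 lower (4.6%) in null libraries. In 27.2% of all genes the libraries of the genotypes did not overlap. Among well-expressed genes 414 of 2932 passed (14.1%), of which 199 rose (6.79%) and 215 fell (7.33%). The share called climbed with level, from 1.64% of genes under 20 CPM to 38.0% of the 150 genes at or above 1000 CPM, where 35 rose and 22 fell. Of the well-expressed calls 2 rises and 12 falls passed 2-fold, and 72 rises and 96 falls passed 1.5-fold. The median rise was 0.50 and the median fall -0.56, against a median of -0.02 over all well-expressed genes. In 995 of them (33.9%) the null libraries lay wholly above (451) or below (544) the wild type libraries, and this held for 405 of the 414 called genes.

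The balance of rises and falls depended on scaling and the number of calls on single libraries. With TMM factors in place of the deposited scaling 238 well-expressed genes rose and 149 fell, so that rises made up 61.5% of calls against 48.1% as deposited. Libraries 1 and 2 alone gave 130 calls (4.43%), 64 higher (2.18%) and 66 lower (2.25%), and 129 of the 414 genes were among them. Over all genes those 4 libraries gave 155 calls (2.33%), 71 higher (1.07%) and 84 lower (1.26%). The count was 173 without wild type library 3, 194 without null library 1 and 234 without null library 3. In 138 of the 414 genes the call held in each of the 6 fits that left out 1 library. With reads thinned to 531784 in every library 321 well-expressed genes passed.

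**Figure D1:**
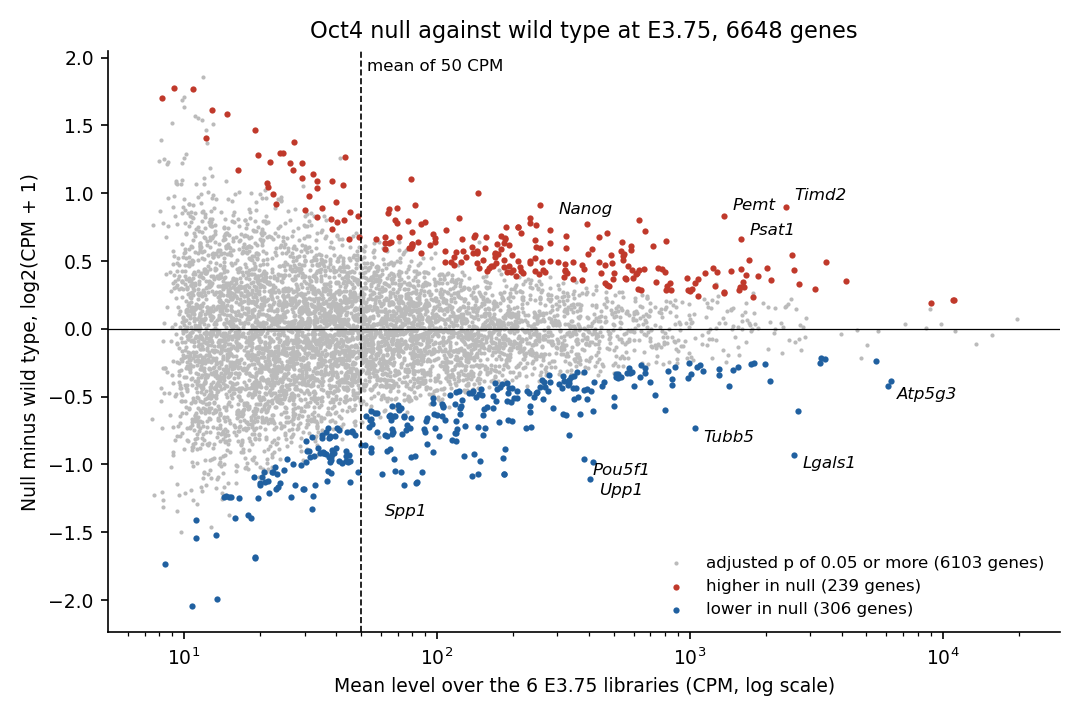
Each point is 1 of 6648 genes, with its mean level over the 6 E3.75 libraries (CPM, log scale) on the horizontal axis and the null minus wild type difference in log2(CPM + 1) on the vertical axis. Red genes (239) were higher and blue genes (306) lower in null libraries with an adjusted p under 0.05 in limma, the dashed line marks a mean of 50 CPM, and changes narrow as level increases.

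The greatest rise among well-expressed genes was that of Naalad2, a peptidase of the glutamate carboxypeptidase family, at 45.13, 72.17 and 36.45 CPM in wild type and 123.7, 96.68 and 102.2 CPM in null libraries (difference 1.10, SE 0.21, adjusted p = 0.00166, limma). Nabp1, a single-stranded DNA binding protein, stood at 52.65 to 62.83 CPM in wild type and at 100.6 to 113.4 CPM in null libraries (0.92). Guca1a, a guanylate cyclase activator known from photoreceptors, stood at 152.3, 184.2 and 197.9 CPM in wild type and at 317.9, 362.7 and 323.4 CPM in null libraries (0.91, adjusted p = 4.41e-05). None of these groups overlapped, and all 3 calls held with libraries 1 and 2 alone. The same was true of Sgpp1, a sphingosine-1-phosphate phosphatase (0.80), of Trim43b (0.82) and of Gm11517 (0.78).

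Among abundant genes the most marked rise was that of Timd2, a cell-surface protein of the TIM family that binds ferritin. It stood at 1621, 1886 and 1540 CPM in wild type and at 3483, 2863 and 3062 CPM in null libraries (0.90, SE 0.078, adjusted p = 2.43e-07, limma). Every null library was more than 1.5 times as high as every wild type library. Pemt, which makes phosphatidylcholine from phosphatidylethanolamine, went from 850, 1141 and 977.3 CPM to 1777, 1783 and 1680 CPM (0.83, adjusted p = 3.67e-06). Chpt1, of the other route to phosphatidylcholine, stood at 55.55 to 77.26 CPM and 90.87 to 146.8 CPM (0.79), a call that was lost without null library 1 (adjusted p = 0.103) or wild type library 3 (0.0642). Alppl2, an alkaline phosphatase of early embryos, went from 430.6, 510.3 and 442.6 CPM to 828.9, 822.2 and 754.7 CPM (0.80, adjusted p = 7.43e-06).

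Psat1, of serine synthesis, stood at 1192, 1341 and 1186 CPM in wild type and at 1845, 2021 and 2032 CPM in null libraries (0.67, adjusted p = 4.16e-06). Sord, sorbitol dehydrogenase, stood at 2029, 2151 and 2019 CPM and at 2898, 3202 and 2932 CPM (0.54, adjusted p = 9.61e-06), and Tdrp at 1681 to 1773 CPM and 2255 to 2429 CPM (0.45). In Psat1, Sord and Tdrp the wild type libraries lay close together and well below the null libraries. The calls of Timd2, Pemt, Alppl2, Psat1, Sord and Tdrp held with any 1 library left out and with libraries 1 and 2 alone. Of the other great rises, Anxa9 (0.89), an annexin, and Csnk1e (0.88), a casein kinase, held with any 1 library left out but not with libraries 1 and 2 alone (adjusted p = 0.0504 and 0.0564). Fkbp6, an FK506 binding protein of germ cells (0.80), lost its call without null library 1 (0.181), wild type library 1 (0.11) or wild type library 3 (0.0741).

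The greatest fall among well-expressed genes was that of Saa3, a serum amyloid A protein, at 124.1, 79.81 and 102.4 CPM in wild type and 31.21, 57.43 and 50.08 CPM in null libraries (-1.15, SE 0.21, adjusted p = 0.00166, limma). Upp1, uridine phosphorylase, went from 641.2, 456.8 and 560.7 CPM to 232.4, 285 and 247.6 CPM (-1.10, SE 0.12, adjusted p = 4.1e-06). Plpp1, a lipid phosphate phosphatase, went from 193.7, 183.4 and 211.8 CPM to 78.61, 102.5 and 99.47 CPM (-1.07, adjusted p = 4.78e-05). In each of these genes the highest null library was below the lowest wild type library. Npr2, a natriuretic peptide receptor (-1.07), Ppp1r14d, an inhibitor of protein phosphatase 1 (-1.06), Apoe, a lipoprotein component (-1.06), and Clic1, a chloride channel protein (-1.05), showed the same separation.

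Some falls went with a wider spread in wild type. Tmsb4x, thymosin beta 4, which binds actin monomers, stood at 865, 331.1 and 501.7 CPM in wild type and at 246.2, 289.3 and 262.2 CPM in null libraries (-0.98, SE 0.19, adjusted p = 0.00253). Blnk, an adaptor of receptor signalling known from B cells, stood at 295.2, 108.7 and 173.6 CPM and at 68.21, 90.87 and 92.51 CPM (-1.08, adjusted p = 0.00427). Spp1, osteopontin, a secreted ligand of integrins, stood at 165.5, 72.17 and 111.1 CPM and at 53.18, 60.34 and 38.26 CPM (-1.13). In all 3 genes wild type library 1 was highest and wild type library 2 lay just above the null libraries. Of the falls given before, Saa3, Upp1, Npr2, Ppp1r14d, Apoe and Clic1 also had wild type library 1 highest and wild type library 2 lowest, while Plpp1 was highest in library 3. Among the 215 falls wild type library 1 was the highest wild type library in 142 (66.0%) and wild type library 2 the lowest in 139 (64.7%), against 38.0% and 32.3% of all well-expressed genes. The part of this spread in the falls was not tested. DESeq2 did not call these 3 genes (adjusted p = 0.101 for Tmsb4x, 0.0932 for Blnk and 0.0596 for Spp1).

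Among abundant genes Lgals1, galectin 1, fell from 4355, 2557 and 3298 CPM to 1542, 1929 and 1790 CPM (-0.93, SE 0.12, adjusted p = 3.09e-05). Tubb5, a beta tubulin, fell from 1375, 1159 and 1399 CPM to 714.4, 854.2 and 792.2 CPM (-0.73, adjusted p = 1.17e-05). Atp5g3, of the membrane ring of ATP synthase, fell from 7422, 6582 and 6959 CPM to 5037, 5231 and 5386 CPM (-0.42, adjusted p = 3.16e-05). Tspan8, a tetraspanin, fell by 0.42 and Khdc3, of the subcortical maternal complex, by 0.38 on this scale. None of the 5 genes overlapped between the groups, and all held with any 1 library left out and with libraries 1 and 2 alone.

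**Figure D2:**
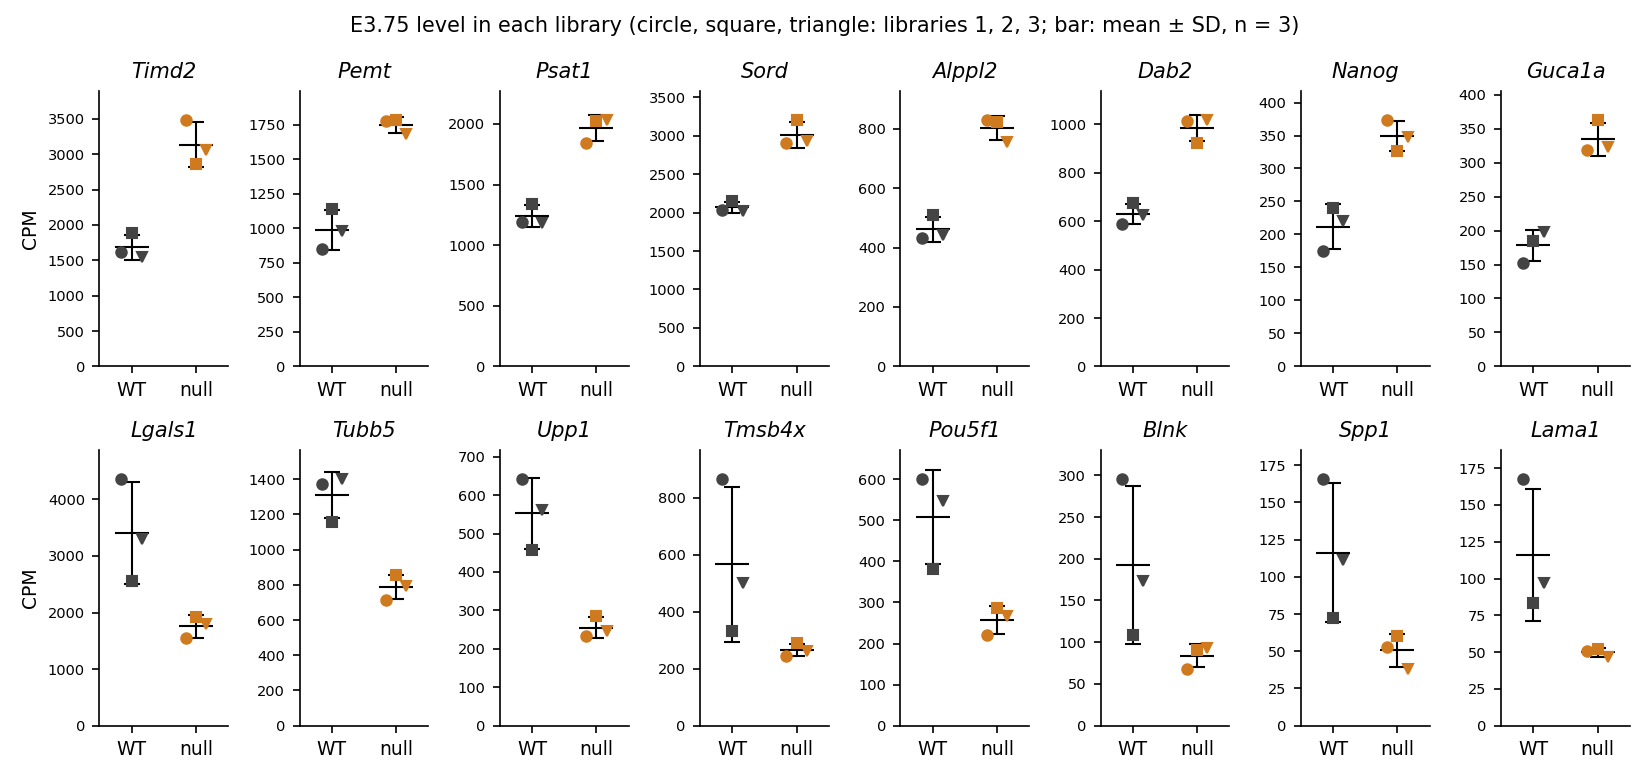
Each panel gives the CPM of 1 gene in the 3 wild type (grey) and 3 null (orange) libraries of E3.75, with circle, square and triangle for libraries 1, 2 and 3 and a bar for the mean with its SD (n = 3). In the upper row, genes that rose, wild type library 2 is the highest wild type library in all but Guca1a. In the lower row, genes that fell, wild type library 1 is often highest and wild type library 2 lowest, as for Tmsb4x (865 and 331.1 CPM).

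A ribosomal protein gene stood among both the greatest rises and the greatest falls, and its values are uncertain. Rps18 was higher in null libraries (wild type mean 171.7 ± 45.19 CPM, null mean 296.1 ± 24.77 CPM, SD, n = 3) and its pseudogene Rps18-ps3 lower (250.4 ± 75.9 and 119.3 ± 37.88 CPM). A further gene, ENSMUSG00000079172, had the values of Rps18-ps3 in every library. Near-identical copies can share reads, and Rps18 and Rps18-ps3 together summed to 434.3, 371.9 and 460 CPM in wild type and to 396.6, 450.7 and 399.3 CPM in null libraries. The sums overlapped, with means of 422.1 and 415.5 CPM, so that the calls of the copies are not read as changes of a gene.

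Promoters of the greatest changes were searched for ATGCAAA, a part of the octamer that Oct4 binds, on both strands (TTTGCAT on the other), in 300-base windows from 250 bases before to 50 after each start site (RefSeq, GRCm38.p6). The window held it in 3 of the 11 greatest falls with a promoter in the reference table (Spp1, Blnk and Tmsb4x) and in 1 of the 12 greatest rises (Guca1a). Of well-expressed genes that fell 7 of 164 held it (4.27%), of those that rose 5 of 148 (3.38%), of all measured well-expressed genes 65 of 2225 (2.92%), and of 27025 genes with a promoter 5.24%. The motif ATTGTT, which HMG-box factors bind and which reads on the opposite strand as AACAAT, was in 5.49% of the windows of genes that fell, 10.8% of genes that rose and 5.89% of measured well-expressed genes. A match is a description of the letters only. The 250 bases before the start site are printed for the 3 of these 4 genes whose match lies there, 5′ to 3′ on the gene's strand, with the match in capitals.
Spp1, chr5:104435942-104436191, plus strand, match starting 210 bases before the start site: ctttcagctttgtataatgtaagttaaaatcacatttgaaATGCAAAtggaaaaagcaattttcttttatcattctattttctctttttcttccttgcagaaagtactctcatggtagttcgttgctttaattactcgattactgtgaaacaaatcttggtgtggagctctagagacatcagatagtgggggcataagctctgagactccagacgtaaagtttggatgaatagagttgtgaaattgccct
Blnk, chr19:40994222-40994471, minus strand, match starting 129 bases before the start site: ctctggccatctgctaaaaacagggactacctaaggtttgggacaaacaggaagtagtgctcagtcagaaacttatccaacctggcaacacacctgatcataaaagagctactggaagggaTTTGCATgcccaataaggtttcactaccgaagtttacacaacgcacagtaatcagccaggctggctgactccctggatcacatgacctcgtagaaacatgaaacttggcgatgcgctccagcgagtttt
Guca1a, chr17:47400607-47400856, minus strand, match starting 128 bases before the start site: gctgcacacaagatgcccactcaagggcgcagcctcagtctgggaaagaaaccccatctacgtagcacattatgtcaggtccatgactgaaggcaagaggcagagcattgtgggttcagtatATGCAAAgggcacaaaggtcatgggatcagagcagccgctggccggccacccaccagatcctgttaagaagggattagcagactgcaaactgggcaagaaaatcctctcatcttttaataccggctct
The match of Tmsb4x lies after its start site. Spp1 and Blnk were among the falls with a wide spread in wild type, and Guca1a rose with little spread (178.1 ± 23.39 CPM in wild type, 334.7 ± 24.45 CPM in null, SD, n = 3).

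Genes of the lineages were read next, in lists chosen with earlier results of these data known. Among 19 well-expressed epiblast and pluripotency genes there were 3 rises (15.8%) and 6 falls (31.6%), against 6.79% and 7.33% of all well-expressed genes. The falls include Pou5f1 itself. The median difference was -0.18, and libraries 1 and 2 alone gave 1 rise and 4 falls. Nanog, which marks and maintains the epiblast, stood at 174.9, 240.3 and 220.5 CPM in wild type and at 373.4, 327.1 and 347.1 CPM in null libraries (0.73, SE 0.12, adjusted p = 0.000566, limma). Nanog thus rose in libraries in which Pou5f1 fell, and the groups did not overlap. Dppa2, a nuclear protein of pluripotent and germ cells, rose by 0.86, a call lost without wild type library 3 (adjusted p = 0.0591), and Dppa3 (Stella) by 0.32, lost without null library 1 (0.0754) or wild type library 3 (0.0527). Tdgf1, a co-receptor of Nodal, stood at 144.8, 73.86 and 97.21 CPM and at 41.62, 58.88 and 57.73 CPM (-0.95, lost without null library 1, 0.0563). Fgf4, the ligand named above, had a mean under 50 CPM, at 50.77, 50.94 and 50.34 CPM in wild type and at 20.81, 28.35 and 30.6 CPM in null libraries (-0.92, adjusted p = 0.0133, lost without null library 1, 0.0765, or wild type library 3, 0.0544). It was named after its values were seen. Among other genes under 50 CPM, Zscan10, a zinc finger factor of pluripotent cells, stood at 45.13, 42.45 and 38.19 CPM in wild type and at 16.18, 20.35 and 17.39 CPM in null libraries (-1.18, adjusted p = 0.0052).

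The primitive endoderm list split. Of 12 well-expressed members 3 rose and 5 fell, with a median near 0 (0.0016), and with libraries 1 and 2 alone 2 rose and 3 fell. The laminin chains, parts of the basement membrane, were lower in null libraries. Lama1 stood at 167.4, 83.2 and 97.21 CPM in wild type and at 50.87, 52.34 and 46.6 CPM in null libraries (-1.13, adjusted p = 0.00144), and Lamb1 at 253.9, 164.7 and 175.3 CPM and at 79.77, 115.6 and 102.9 CPM (-0.98, adjusted p = 0.000738). Aqp8, a water channel, fell from 90 to 103.4 CPM to 53.18 to 66.88 CPM (-0.73), and was not called with libraries 1 and 2 alone (adjusted p = 0.16). Sparc, a matrix glycoprotein, fell by 0.73, lost without wild type library 3 (0.0527). Opposite to these, Dab2, an endocytic adaptor, stood at 588.6, 673.3 and 626.7 CPM and at 1016, 924.7 and 1018 CPM (0.65, adjusted p = 3.16e-05), and Cited1, a transcriptional co-activator, at 214.4, 264.9 and 263.9 CPM and at 491.3, 334.4 and 380.5 CPM (0.68, adjusted p = 0.00158). Sox17, an endoderm transcription factor, fell from 32.26 to 45.13 CPM to 9.248 to 19.63 CPM (-1.24, adjusted p = 0.0132, lost without null library 1, 0.0808). Gata6, the earliest of these factors, stood at 135.4, 129.9 and 138.9 CPM and at 134.1, 139.6 and 156.5 CPM (0.09, 95% interval -0.19 to 0.36), and Gata4 at 11.04 to 31.97 CPM and 6.936 to 11.63 CPM (-1.06, adjusted p = 0.121).

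Of the 10 trophectoderm markers 1 was called, while the wider list of trophectoderm regulators was called more often than well-expressed genes at large. Cdx2, which specifies this lineage, stood at 507.7, 585.8 and 579.8 CPM in wild type and at 492.5, 562.7 and 574.5 CPM in null libraries (-0.04, 95% interval -0.23 to 0.15), and Eomes at 134.1 to 176.8 CPM and 151.9 to 187.1 CPM (0.11). The directions of these 2 values changed with the scaling or a library left out. The keratins Krt8 (1258, 1352 and 1307 CPM against 1207, 1302 and 1191 CPM) and Krt18 (4579 to 5852 CPM against 3944 to 4732 CPM) were not called (adjusted p = 0.531 and 0.0728). Of 12 well-expressed members of the list of trophectoderm regulators 2 rose (16.7%) and 4 fell (33.3%), against 6.79% and 7.33% of all well-expressed genes. Id3, an inhibitor of helix-loop-helix factors, fell from 116.6, 124 and 138.9 CPM to 63.58, 70.51 and 66.08 CPM (-0.91, SE 0.15, adjusted p = 0.000738), and Ptges, prostaglandin E synthase, rose from 549.1, 703 and 649.2 CPM to 862.4, 874.5 and 843 CPM (0.45, adjusted p = 0.00296). Tead4, a factor upstream of Cdx2, rose by 0.56, lost without null library 1 (0.0516) or wild type library 3 (0.0712), and Lgals3 fell by 0.83, lost without wild type library 1 (0.1), null library 1 (0.0711) or wild type library 3 (0.0646).

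Of 18 well-expressed genes of junctions, keratins and the sodium pump 2 rose (11.1%) and 2 fell (11.1%), near the 6.79% and 7.33% of all well-expressed genes. Cldn7, a claudin of tight junctions, stood at 2300, 2644 and 2267 CPM in wild type and at 2975, 3145 and 2944 CPM in null libraries (0.33, adjusted p = 0.00248; 0.0836 with libraries 1 and 2 alone), while Cldn3 stood at 103.4, 63.68 and 102.4 CPM and at 34.68, 47.25 and 54.25 CPM (-0.96, lost without wild type library 3, 0.0571, or null library 1, 0.0534). Ezr, which links membrane to actin, fell by 0.79 and F11r, a junction protein, rose by 0.41, and both calls were lost without null library 1 (0.132 and 0.0798), null library 3 (0.0645 and 0.0717) or wild type library 3 (0.114 and 0.0665), and that of Ezr also without wild type library 2 (0.0565). Gjb5, a gap junction protein outside the list, stood at 231.3, 254.7 and 237.8 CPM and at 111, 117.8 and 146.1 CPM (-0.95, adjusted p = 7.86e-05).  Of 8 well-expressed signalling genes 2 fell, Tdgf1 and Id3, and none rose in limma, edgeR or DESeq2 (0 at an unadjusted p under 0.05).

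Endocytosis, lysosome and proton pump genes gave the highest share of rises among the lists with over 12 well-expressed members. Of 37 well-expressed members 11 rose (29.7%) and none fell in limma, edgeR or DESeq2 (1 was lower at an unadjusted p under 0.05), against 6.79% and 7.33% of all well-expressed genes, with a median difference of 0.18. Besides Dab2, Ctsz, a lysosomal protease, went from 182.4, 238.6 and 192.7 CPM to 308.7, 319.1 and 294.2 CPM (0.59, adjusted p = 0.00272). Grn, progranulin, stood at 321.6, 327.7 and 324.6 CPM and at 455.5, 435.4 and 432.6 CPM (0.44, adjusted p = 0.00521; 0.119 with libraries 1 and 2 alone), and Scarb2, a lysosomal membrane receptor, rose by 0.58, lost without null library 2 (0.0507), null library 3 (0.0564) or wild type library 3 (0.0867). The sum of the well-expressed members was 32350 to 34260 CPM in wild type and 37400 to 39340 CPM in null libraries, so that it did not overlap. With libraries 1 and 2 alone 3 rose (Dab2, Ctsz and the receptor chaperone Lrpap1), and 6 of the 11 held in every fit with 1 library left out.

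Of 38 well-expressed actin, tubulin and motor genes 12 fell (31.6%, against 7.33% of all well-expressed genes; median -0.21) and none rose in limma, edgeR or DESeq2 (1 was higher at an unadjusted p under 0.05). Another 26 did not pass, and 9 of the 38 had a higher mean in null libraries. Of the 12 falls 6 were also called with libraries 1 and 2 alone, and 6 held in every fit with 1 library left out. Besides Tmsb4x and Tubb5, Dynll2, a dynein light chain, fell from 85.06 to 99.66 CPM to 36.99 to 63.24 CPM (-0.77), lost without null library 1 (0.128) or wild type library 3 (0.0509). The sums of the members were 14880 to 16780 CPM in wild type and 13090 to 13730 CPM in null libraries. Of 11 galectin, annexin and S100 genes, small proteins of membrane and cell surface, 2 rose (18.2%) and 5 fell (45.5%), against 6.79% and 7.33% of all well-expressed genes. Lgals4, galectin 4, stood at 421.2, 405 and 435.7 CPM in wild type and at 249.7, 245 and 236.5 CPM in null libraries (-0.78, SE 0.10, adjusted p = 3.16e-05), with little spread in either group. Anxa9 was among the rises. Of 9 extracellular matrix and integrin genes 4 fell (44.4%) and 1 rose (11.1%). The falls were Lama1, Lamb1, Spp1 and Sparc. The rise was that of Col4a1, a collagen IV chain (0.43), which passed in 1 of the 6 fits with 1 library left out and had an adjusted p of 0.29 without null library 3. Of 83 Rab, Arf and coat protein genes, which route vesicles, 4 rose (4.82%) and 1 fell (1.2%), and none of these calls held in every fit with 1 library left out. They were Rab18 (-0.72), Snx1 (0.49), Arl8b (0.46) and Snx5 (0.30), with highest adjusted p in those fits of 0.093, 0.145, 0.204 and 0.194, and the remaining rise, Snx3, lies outside the naming rule.

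Nuclear genes of mitochondrial energy metabolism were lower more often than higher. Of 25 well-expressed genes of the TCA cycle and pyruvate entry 8 fell (32.0%), against 7.33% of all well-expressed genes (median -0.32). None rose in limma, edgeR or DESeq2, and 1 was higher at an unadjusted p under 0.05. The falls numbered 2 with libraries 1 and 2 alone and 4 in edgeR. Glud1, glutamate dehydrogenase, stood at 291.5, 163 and 204.8 CPM in wild type and at 126, 130.1 and 140.5 CPM in null libraries (-0.69, adjusted p = 0.00911), and it alone held in every fit with 1 library left out. Mdh1, cytosolic malate dehydrogenase, fell by 0.57, lost without null library 1 (0.0893), and Dld (-0.51) and Ogdh (-0.46) of the oxoglutarate dehydrogenase complex were lost in 5 and 6 of the 6 fits, at adjusted p up to 0.138 and 0.218.

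Of 74 nuclear genes of the respiratory chain and ATP synthase 16 fell (21.6%) and 1 rose (1.35%), against 7.33% and 6.79% of all well-expressed genes (median -0.17). Beside Atp5g3 the named falls were of complex I, Ndufs8 (737.1, 611.3 and 723.9 CPM against 491.3, 545.9 and 502.9 CPM, -0.42) and Ndufv2 (-0.45), both lost without wild type library 3 (0.0544 and 0.0801), and Ndufb8 (-0.54), lost in 5 of the 6 fits (up to 0.222). The rise was that of Uqcc3, an assembly factor of complex III (0.59), lost in 5 of the 6 fits (up to 0.2). The falls numbered 1 with libraries 1 and 2 alone, 8 with TMM factors and 10 in edgeR. The summed level of the 74 genes was 44750 to 47950 CPM in wild type and 39410 to 39990 CPM in null libraries, and did not overlap. Of 9 mitochondrially encoded genes mt-Co1 was the 1 call in limma, and fell from 8227, 6085 and 6975 CPM to 5091, 5450 and 5623 CPM (-0.39, adjusted p = 0.00175), while 1 other rose in edgeR and with TMM factors. Among the 9 genes 6 were higher and 3 lower in null libraries (median difference 0.05). Their sums overlapped, at 37030 to 42610 CPM in wild type and 36170 to 39090 CPM in null libraries. Of 78 genes of the mitochondrial ribosome and import 4 fell (5.13%) and none rose in limma. In this list 9 were higher at an unadjusted p under 0.05, with 2 rises in edgeR, 1 with TMM factors and none in DESeq2. The falls were Hspd1 (-0.50), Mrpl14 (-0.49), Mrps12 (-0.48) and Tomm6 (-0.47). Tomm6 alone of these held in every fit with 1 library left out, and the others were lost in 3 (up to 0.0653, 0.0866 and 0.132).

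Redox and metabolic genes gave scattered calls. Of 23 redox and glutathione genes 1 rose (4.35%) and 4 fell (17.4%), against 6.79% and 7.33% of all well-expressed genes. Prdx2, a peroxiredoxin, which breaks down hydrogen peroxide, stood at 327.2, 257.3 and 300.3 CPM in wild type and at 157.2, 186.1 and 189.9 CPM in null libraries (-0.73, adjusted p = 0.000738), and Prdx1 at 955.3, 978.9 and 984.2 CPM and at 734.1, 692.8 and 765.8 CPM (-0.41, adjusted p = 0.00166). Mt1, metallothionein 1, a metal-binding protein, rose from 2345, 3377 and 2930 CPM to 3631, 4695 and 3769 CPM (0.49, adjusted p = 0.00251). Sod1, superoxide dismutase, fell by 0.29, lost in 5 of the 6 fits with 1 library left out (up to 0.154) and with TMM factors (0.0943).

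Of 40 well-expressed solute carriers, which move small molecules across membranes, 5 rose (12.5%) and 5 fell (12.5%), against 6.79% and 7.33% of all well-expressed genes. Slc46a1, a folate transporter, stood at 400.5, 477.1 and 416.6 CPM in wild type and at 661.3, 644.8 and 620.4 CPM in null libraries (0.58, adjusted p = 0.000401). Slc5a6, a vitamin transporter, stood at 453.2, 445.7 and 430.5 CPM and at 626.6, 662.3 and 643.4 CPM (0.54, adjusted p = 0.00041). Neither group overlapped, and both calls held with libraries 1 and 2 alone, where 4 carriers rose and none fell (7 were lower at an unadjusted p under 0.05). Slc35f6 (0.77) was lost without null library 1 (0.0955) or wild type library 3 (0.0599), and Slc27a4 (-0.65), of fatty acid uptake, in 5 of the 6 fits (up to 0.222). No fall among the carriers held in every such fit, against 3 rises.

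Genes of nucleotide metabolism (24 well expressed) gave 2 rises (8.33%) and 3 falls (12.5%), against 6.79% and 7.33% of all well-expressed genes. Tkt, transketolase of the pentose phosphate pathway, stood at 513.4, 420.3 and 456.5 CPM in wild type and at 341, 317 and 311.6 CPM in null libraries (-0.51, adjusted p = 0.00245). Prps1, which makes the ribose donor of nucleotide synthesis, rose from 1393, 1442 and 1475 CPM to 1658, 1929 and 1894 CPM (0.34, adjusted p = 0.00396). Both calls held with any 1 library left out but not with libraries 1 and 2 alone (0.0702 and 0.103). Dut, which removes dUTP (-0.40), passed in 1 of the 6 fits with 1 library left out (up to 0.188). Of 20 genes of amino acid and one-carbon metabolism 2 rose and 3 fell, with Psat1 and Glud1 given above and Oat, ornithine aminotransferase (-0.64), lost in 4 of the 6 fits (up to 0.167). Of 14 genes of sterol and fatty acid synthesis 2 fell (14.3%), Fasn (-0.44) and Scd2 (-0.28), each passing in 1 of the 6 fits (up to 0.188 and 0.257), and with TMM factors none of the 14 passed. Of 6 well-expressed glycolysis genes none passed in limma or edgeR, and 1 was lower at an unadjusted p under 0.05. Over all 16 measured glycolysis genes 3 were higher and 13 lower in null libraries, with a median of -0.41. Of the 16, 1 fell, where 4.6% of all genes did. It was Eno1, at a mean of 18.88 CPM (-1.09, adjusted p = 0.0486, limma), which passed in 1 of the 6 fits with 1 library left out.

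The machinery of gene expression gave calls near or below the background share. Of 48 cytosolic ribosomal protein genes 3 rose (6.25%) and 1 fell (2.08%), and their sum was 77970 to 78920 CPM in wild type and 76300 to 79880 CPM in null libraries. Besides Rps18 the calls were Rpl10l (0.78), Rpl39l (0.24) and Rps3a3 (-0.54), copies that may share reads with other genes, lost in 2, 4 and 4 of the 6 fits with 1 library left out (up to 0.165, 0.213 and 0.124). Of 64 translation factor and tRNA synthetase genes 5 rose (7.81%) and 4 fell (6.25%), against 6.79% and 7.33% of all well-expressed genes. Eif5, which helps the ribosome select the start codon, stood at 299, 367.6 and 315.9 CPM in wild type and at 467, 504.5 and 505.7 CPM in null libraries (0.59, adjusted p = 0.000738), and Eif3d, of the initiation factor eIF3, at 1534, 1737 and 1583 CPM and at 2251, 2012 and 2084 CPM (0.39, adjusted p = 0.00118). These 2 genes were also called with libraries 1 and 2 alone. Eif4a2 (0.67) was lost without wild type library 3 (0.1) or null library 1 (0.0579), and Eif1b (0.58) in 3 of the 6 fits (up to 0.175).

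Of 59 splicing and RNA binding genes 2 rose (3.39%) and 2 fell (3.39%), against 6.79% and 7.33% of all well-expressed genes. Ddx39, an RNA helicase, rose by 0.31, lost without wild type library 3 (0.0509), and Rbm8a, of the exon junction complex, by 0.53, lost in 3 fits (up to 0.0942). Srsf11 and Hnrnpm fell, and passed in 2 fits each (up to 0.143 and 0.237). Of 18 chromatin genes 1 rose (Mta3, 5.56% of members) and 2 fell (Cbx5 and Mbd3, 11.1%), and none of the 3 calls held in every fit (up to 0.154, 0.16 and 0.187). Of 25 ribosome biogenesis genes none passed in limma, 1 rose in edgeR and none passed in DESeq2, and 1 was higher and 1 lower at an unadjusted p under 0.05. Of 12 zinc finger genes none passed in limma, edgeR or DESeq2, and 1 was higher at an unadjusted p under 0.05.

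Of 45 chaperones 3 rose (6.67%) and 3 fell (6.67%), the shares of all well-expressed genes being 6.79% and 7.33%. Stip1, which joins Hsp70 and Hsp90, stood at 1305, 1637 and 1318 CPM in wild type and at 1995, 2053 and 1980 CPM in null libraries (0.51, adjusted p = 0.000244). Hspa5, the Hsp70 of the endoplasmic reticulum, stood at 539.7, 610.4 and 534.6 CPM and at 765.3, 785.1 and 736.6 CPM (0.44, adjusted p = 0.00213; 0.0734 with libraries 1 and 2 alone). Neither gene overlapped between the groups. Dnajb1, a co-chaperone, fell by 0.44 and passed in 2 of the 6 fits with 1 library left out (up to 0.151). Of 43 proteasome genes 2 rose (4.65%) and none fell in limma, edgeR or DESeq2, with a median difference of 0.12. They were the ATPase subunits Psmc2 (0.27) and Psmc5 (0.27), both lost in 4 of the 6 fits (up to 0.0984 and 0.169), and 10 were higher and 1 lower at an unadjusted p under 0.05. Of 25 ubiquitin conjugation genes 1 rose (Ube2e3, 4.0% of members) and 2 fell (Uba2 and Ubb, 8.0%), and none held in every fit (up to 0.211, 0.0577 and 0.224).

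Of 24 well-expressed DNA replication genes 4 fell (16.7%), against 7.33% of all well-expressed genes (median -0.19). None rose in limma, edgeR or DESeq2 (0 higher at an unadjusted p under 0.05), and 3 of the 4 falls were subunits of the MCM helicase. Mcm2 stood at 346, 416.9 and 421.8 CPM in wild type and at 223.1, 270.4 and 266.4 CPM in null libraries (-0.64, adjusted p = 0.00108), and was also called with libraries 1 and 2 alone. Mcm6 (-0.46), Mcm5 (-0.51) and Gins2 (-0.66) passed in 2, 2 and 3 of the 6 fits with 1 library left out (up to 0.114, 0.29 and 0.185). The sum of the 24 genes was 3878 to 4275 CPM in wild type and 3494 to 3659 CPM in null libraries. Of 31 mitosis and cyclin genes 3 fell (9.68%), Mki67 (-0.60), Cdk1 (-0.57) and Ccnd3, and they passed in 0, 1 and 2 of the fits (up to 0.178, 0.143 and 0.0759). Of 7 p53 targets and apoptosis genes none passed in limma, edgeR or DESeq2, and 1 was lower at an unadjusted p under 0.05.

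**Figure D3:**
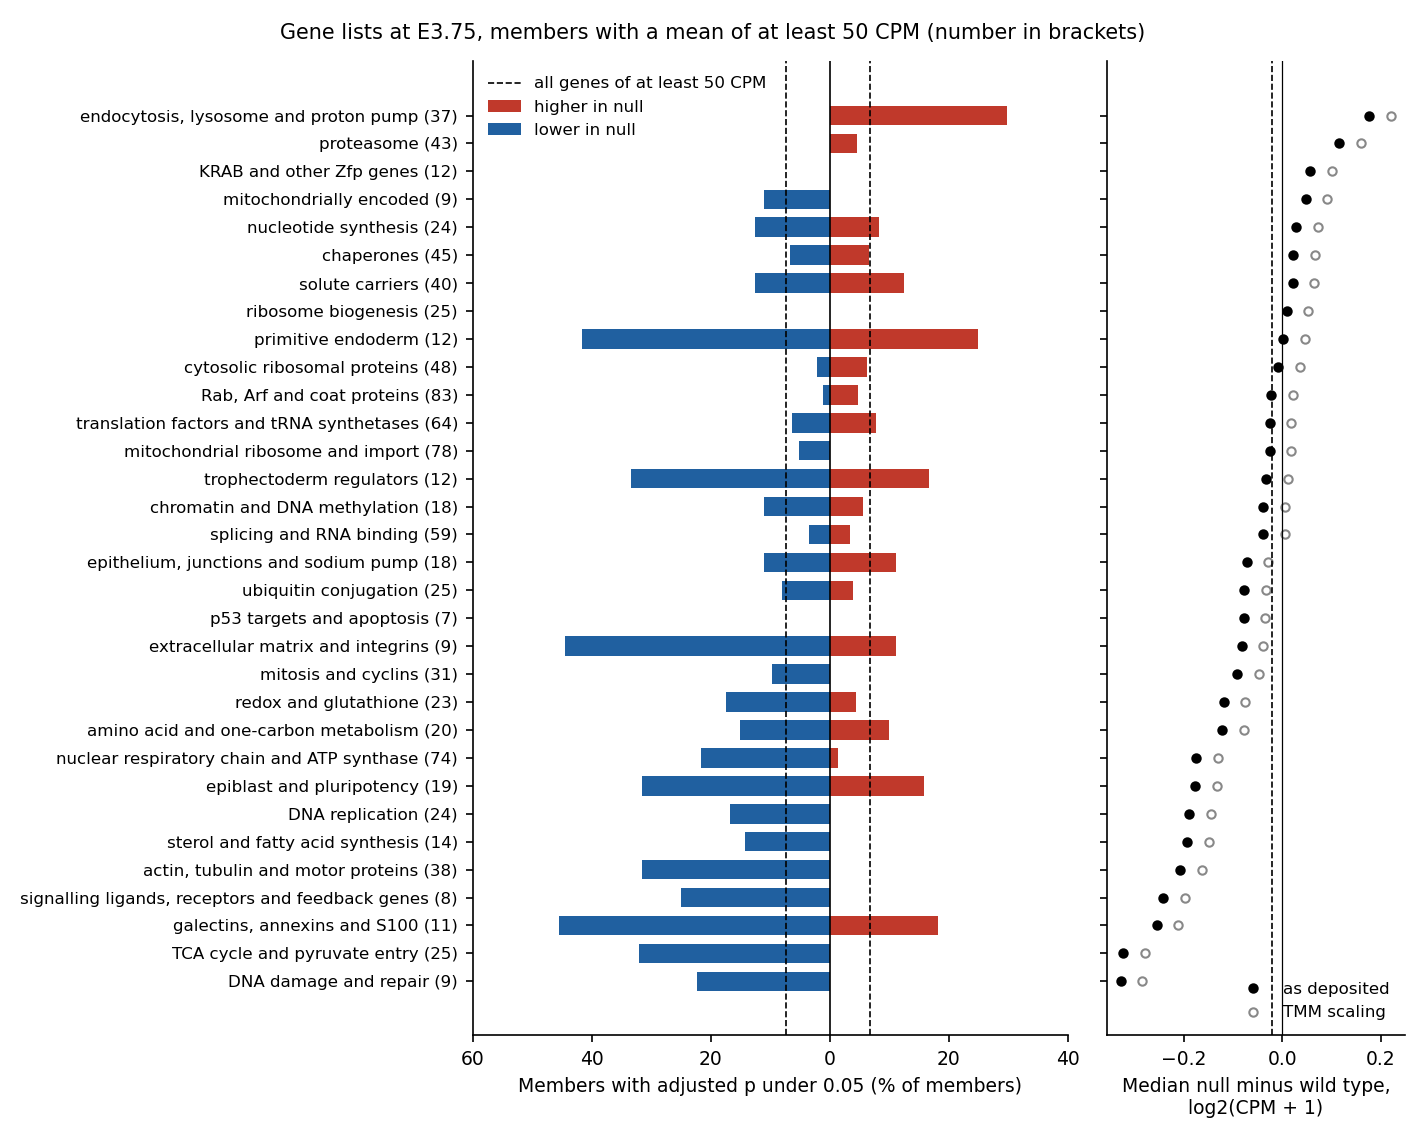
Each row is 1 gene list with its number of well-expressed members (horizontal axis, percent of members), and bars give the percent of those members that rose (right, red) or fell (left, blue) at an adjusted p under 0.05 in limma. Dashed lines mark the shares among all 2932 well-expressed genes, 6.79% and 7.33%; endocytosis, lysosome and proton pump genes reach 29.7% on the side of rises, and TCA cycle and cytoskeleton genes 32.0% and 31.6% on the side of falls. The right panel gives each list's median difference as deposited (filled) and with TMM factors (open), all of which move up with TMM.

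Genes listed as oocyte, maternal or 2-cell genes and genes of blood were read as a check of the material. Of 3 oocyte and maternal genes 1 rose (Dppa3) and 1 fell (Khdc3). Pramel6, a gene of the 2-cell list, stood at 477.6, 475.5 and 439.2 CPM in wild type and at 724.8, 690.6 and 710.2 CPM in null libraries (0.61, adjusted p = 8.57e-05). Globin transcripts, which blood cells make, were higher in null libraries, and their part in the other results was not tested. Hbb-bs stood at 71.46, 120.6 and 88.53 CPM in wild type and at 302.9, 117.8 and 175.3 CPM in null libraries (1.00, adjusted p = 0.00818), with 1 null library below the highest wild type library, and the call was lost without null library 1 (0.0887). Hba-a1 stood at 20.69 to 28.87 CPM and at 37.8 to 93.64 CPM, likewise lost without null library 1 (0.0744). Of 8 blood markers 3 were in the table, at a sum of 114.7 to 176.6 CPM in wild type and 175.9 to 474 CPM in null libraries, while Ptprc and Alas2 were not in it. Xist stood at 28.02 to 52.65 CPM in wild type and at 16.18 to 26.9 CPM in null libraries (adjusted p = 0.0509), and embryo sex is not given in the labels.

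The response was set beside that at E2.5 (morula) and E4.5 (late blastocyst), each tested in its own table. At E2.5 42 of 7082 genes passed (0.593%). At E4.5 0 of 6545 passed in limma (0.0%), with 560 higher and 425 lower at an unadjusted p under 0.05. Of the 199 well-expressed rises at E3.75, 138 of 199 measured (69.3%) were higher in null libraries at E2.5 and 167 of 198 (84.3%) at E4.5, where 48.3% and 56.0% of all genes were. Of the 215 falls, 136 of 196 (69.4%) were lower at E2.5 and 140 of 213 (65.7%) at E4.5, where 51.7% and 44.0% of all genes were. A difference called at one stage and not at another is not a difference between stages, so the difference itself was tested over the 5430 genes in all 3 tables. It passed for 56 genes against E2.5 (1.03%; 21 higher and 35 lower at E3.75) and for 5 against E4.5 (0.0921%). With 2 libraries of each group (libraries 1 and 2, and for wild type at E4.5, whose columns carry no replicate number, an arbitrary pair) none passed in limma, at 287 and 284 genes with an unadjusted p under 0.05.

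Pou5f1 was lower in null libraries at every stage, with a difference of -0.96 at E3.75 as given above, of -0.95 at E2.5 (1875 ± 193.7 and 968.3 ± 40.08 CPM, SD, n = 3) and of -1.05 at E4.5 (230.6 ± 45.9 and 111.5 ± 26.89 CPM, adjusted p = 0.125). Timd2 stood at 3508 ± 156 and 3649 ± 22.88 CPM at E2.5 (0.06), and its effect was 0.83 greater at E3.75 (adjusted p = 0.0463). In wild type its level was 1682 ± 180.9 CPM at E3.75, and levels were set across tables that were scaled separately. Upp1 stood at 20.09 ± 6.037 and 19.25 ± 1.839 CPM at E2.5 (-0.02), against -1.10 at E3.75 (difference -1.09, adjusted p = 0.0321). Dab2 had no measurable difference at E2.5 (622.3 ± 51.95 and 622.5 ± 57.8 CPM) and rose at E3.75 (difference of effects 0.64, adjusted p = 0.0321). Tdrp had an effect of 0.45 at E3.75, beside -0.05 (E2.5) and -0.10 (E4.5), and both differences from E3.75 passed (adjusted p = 0.0189 and 0.0186). Id3 was higher in null libraries at E2.5 (1.19, adjusted p = 0.0605) and fell at E3.75 (difference -2.11, adjusted p = 0.00233). Tubb5 fell at E3.75 and stood at 1006 ± 31.54 and 962.6 ± 12.39 CPM at E4.5 (difference -0.68, adjusted p = 0.0311). Nanog had effects of 0.09 at E2.5 and -0.18 at E4.5, neither called.

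**Figure D4:**
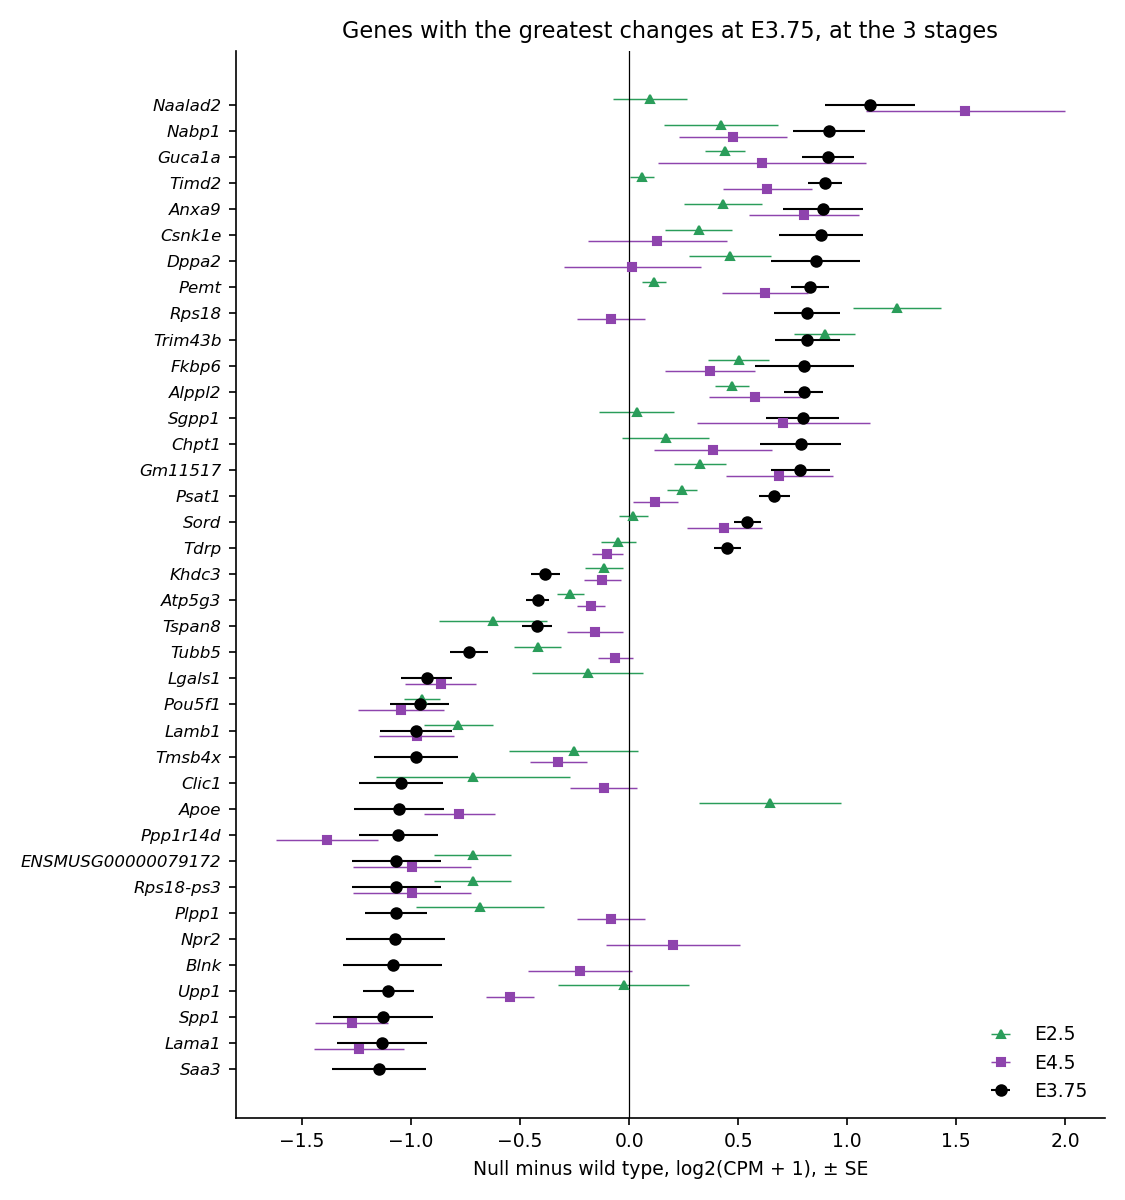
For each gene named for the greatest changes at E3.75 and for Pou5f1 (rows), points give the null minus wild type difference in log2(CPM + 1) with its SE for E3.75 (black circles), E2.5 (green triangles) and E4.5 (purple squares), where the gene was in that stage's table. Timd2 and Upp1 lie near 0 at E2.5 (0.06 and -0.02) and away from it at E3.75, while Pou5f1 lies between -0.95 and -1.05 at all 3 stages.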

How the data were processed

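RNA of mouse embryos was sequenced from oligo(dT)-primed, amplified cDNA, per the labels' protocols. The deposited values are CPM, which per the submitters' processing notes came from a workflow that names edgeR and the mouse build mm9; the aligner is not given in the sources used here. The deposited CPM of 121650 of 121650 values came out as whole reads (within 0.01 reads), so depth and reads were recovered. Each gene in the E3.75 table had at least 10.4 CPM in 3 of 6 libraries.

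Null was compared with wild type (3 libraries each) on log2(CPM + 1) by limma 3.58.1 (R 4.3.3) with an intensity trend, two-sided, with Benjamini-Hochberg adjustment over all 6648 genes and a threshold of 0.05. Differences between stages were tested as an interaction over 18 libraries, on CPM recomputed over 5430 shared genes. Alternatives were TMM and DESeq2 size factors, edgeR 4.0.16 quasi-likelihood and DESeq2 1.42.0 on recovered reads, pseudocounts of 0.1 and 5, filters at 10 and 50 CPM, a replicate block, thinned reads, libraries 1 and 2 alone, and each library left out. Scripts were tested on simulated data. Same-numbered libraries did not deviate together (correlations -0.0056, -0.07 and 0.043).

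The members and the 38 gene lists were chosen with earlier results of these data known. Named were Pou5f1, the 15 greatest separate rises and falls at or above 50 CPM, the 5 smallest p per direction at or above 1000 CPM, up to 4 called members of each list (or the 2 smallest p), 8 lineage genes, and the 5 smallest p per direction between stages.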

Additional observations from a re-analysis of the deposited data

Results flagged for a closer look

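The null effect at E3.75 (log2 scale) differed from that at E2.5, by the test of the difference itself (limma, adjusted p in brackets), for 18 named genes (56 of 5430 tested). It was more positive at E3.75 for Timd2 by 0.83 (0.0463), Tdrp by 0.49 (0.0189), Dab2 by 0.64 (0.0321), C130073F10Rik by 0.96 (0.000577), Dsp by 1.27 (0.00404) and Cd63-ps by 0.57 (0.0321). Dsp, desmoplakin of desmosomes, had effects of 0.37 at E3.75 and -0.91 at E2.5.

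It was more negative at E3.75 for Id3 at -2.11 (0.00233), Dusp1 at -1.997 (0.0463), Apoe at -1.71 (0.0189), Mfge8 at -1.48 (0.00233), Slc27a4 at -1.44 (0.01), Rps3a3 at -1.38 (0.00728), Dynll2 at -1.26 (0.0462), Vamp8 at -1.11 (0.00233), Upp1 at -1.09 (0.0321), Pmf1 at -0.99 (0.0353), Cdk1 at -0.95 (0.0463) and Tkt at -0.55 (0.0463). Id3, Dusp1, Apoe, Mfge8, Slc27a4, Rps3a3, Dynll2, Vamp8, Pmf1, Cdk1 and Tkt had effects above 0 at E2.5 and below 0 at E3.75. Of these only Mfge8 and Vamp8 were called at E2.5, and neither was called at E3.75, so that none of these was called in both directions. C130073F10Rik, listed above, was called lower at E2.5 (-0.55, adjusted p = 0.0272, limma) and higher at E3.75 (0.42, adjusted p = 0.000528, limma). The E2.5 effect of Tkt was 0.03 (SE 0.09). Mfge8, a secreted glycoprotein that binds phosphatidylserine, had a wild type mean of 158.7 ± 18.56 CPM and a null mean of 303.1 ± 16.01 CPM at E2.5 (SD, n = 3).

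Against E4.5 the effect was more positive for Tdrp by 0.54 (0.0186) and Rbm8a by 1.07 (0.0354), and more negative for Tubb5 at -0.68 (0.0311) and Dctn2 at -1.08 (0.0311). No explanation of these differences was tested, and with 2 libraries of each group (an arbitrary pair for wild type at E4.5) none passed in limma, at 287 and 284 genes with an unadjusted p under 0.05.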

How the results depend on the processing

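The count of 545 calls was 155 with libraries 1 and 2 alone, 288 in DESeq2 (2320 genes without an adjusted p) and 209 to 652 with 1 library left out. Among well-expressed genes 414 became 130, 260 and 173 to 462. It stayed within 1.5 times of 414 with TMM factors (387), size factors (385), edgeR (422), thinned reads (321), pseudocounts of 0.1 and 5 (396 and 427) and a filter at 10 CPM (419). With the replicate number as a block 438 and 348 were called, though pairing by number was not seen. The 56 differences from E2.5 were 0 with the first 2 libraries, 115 in edgeR and 6 to 87 with 1 library left out. The 5 from E4.5 were 0 with 2 libraries a group (an arbitrary pair for wild type at E4.5), 9 with a pseudocount of 5, 24 with a filter at 50 CPM, 9 in edgeR and 0 to 15 with 1 library left out.

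Of 133 named genes that passed, 64 passed with libraries 1 and 2 alone, 116 with TMM factors and 72 without wild type library 3, all in the same direction. Values not called changed sign for Cdx2, from -0.04 to 0.0058 (TMM), 0.0029 (size factors), 0.0052 (edgeR), 0.0026 (DESeq2) and from -0.105 to 0.031 over the fits with 1 library left out (0.031 without null library 1), and for Eomes, from 0.11 to -0.062 (thinned reads) and from -0.021 to 0.205 over those fits (-0.021 without wild type library 2). Medians of the lists of trophectoderm regulators, ribosomal proteins, Rab, Arf and coat proteins, translation, mitochondrial ribosome, chromatin and splicing changed sign with TMM factors. The causes were not tested. The 3 libraries a group and the unequal depth of the groups limit the precision.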

Other observations

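Pou5f1 lies on chromosome 17. Of 145 other well-expressed genes there 26 were called (17.9%), where 14.1% of all well-expressed genes were, and of the 20 nearest of them, 10 on either side in the RefSeq order, 5 were called. Clic1, Ddx39b, Tubb5 and 2310061I04Rik fell and Ppp1r11 rose. Whether linkage to the targeted gene has a part in these values was not tested.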
